A study of Mus musculus with 4 samples.

Results

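The genes described here encode the lysosomal hydrolases and a few cofactors that such enzymes need. They were chosen by name from a list of 46 genes, and where a gene had several probe sets the brightest was selected on its mean log2 expression over all 4 arrays. Of the 46, 45 were measured among the 19938 genes tested. Hyal1 is not analysed here because no probe set with exactly 1 gene symbol names it. Levels chose the probe sets, so they are given as a description, and only the difference between the groups was tested. The 4 arrays hold E14 cells, a mouse embryonic stem cell line of the inbred 129 strain, 2 from control cells and 2 from cells with Kdm2b knocked down. All were kept on gelatin in 15% serum with 1000 units/ml of leukemia inhibitory factor, were infected with lentiviral vectors at 10 MOI, and were placed under puromycin (2 µg/ml) after 48 h. The labels name neither the control vector nor the Kdm2b hairpin, and E14 is a single line. Kdm2b, a CpG-binding subunit of a variant Polycomb repressive complex 1, stood at 10.74 and 10.64 (log2 expression) in control and at 9.2 and 9.19 in knockdown cells, and it fell by 1.495 (SE 0.0661, adjusted p = 0.0039, limma), or 2.82-fold.

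Lysosomes are acidic compartments in which proteins, lipids, glycans and nucleic acids are broken down. Their enzymes are made in the endoplasmic reticulum, tagged with mannose 6-phosphate in the Golgi and delivered by receptors, and most act at acid pH on 1 bond of 1 kind of substrate. Some need a partner: saposins and the GM2 activator lift lipids to the enzyme, Sumf1 turns a cysteine of every sulfatase into the catalytic formylglycine, and cathepsin A shields sialidase and beta-galactosidase from degradation. Many genes of this kind carry an E-box, a short palindromic promoter element that Tfeb, Tfe3 and Mitf bind.

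After Kdm2b knockdown 17 of the 45 genes were lower and 1, Hyal2, was higher (adjusted p under 0.05, limma, Benjamini-Hochberg adjustment over all 19938 genes), while 27 passed in neither direction. Over all genes 7.19% were called lower and 5.0% higher, against 37.8% and 2.22% of the lysosomal genes. The median log2 fold change of the 45 was -0.245, where the median over all genes was 0.03. Of the 45, 36 were below 0 (80.0%, beside 41.7% of all genes). The changes of the 17 lower genes ran from -1.38 (Hexa) to -0.325 (Asah1), and 3 of them (Hexa, Idua and Fuca2) were at least 2-fold lower. Both knockdown arrays lay below both control arrays for 30 of the 45 genes (25.0% of all genes) and above them for 5 (33.8% of all genes). The gene list was proposed with earlier results of these arrays known, so these counts describe it and no test was made of the list.

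**Figure D1:**
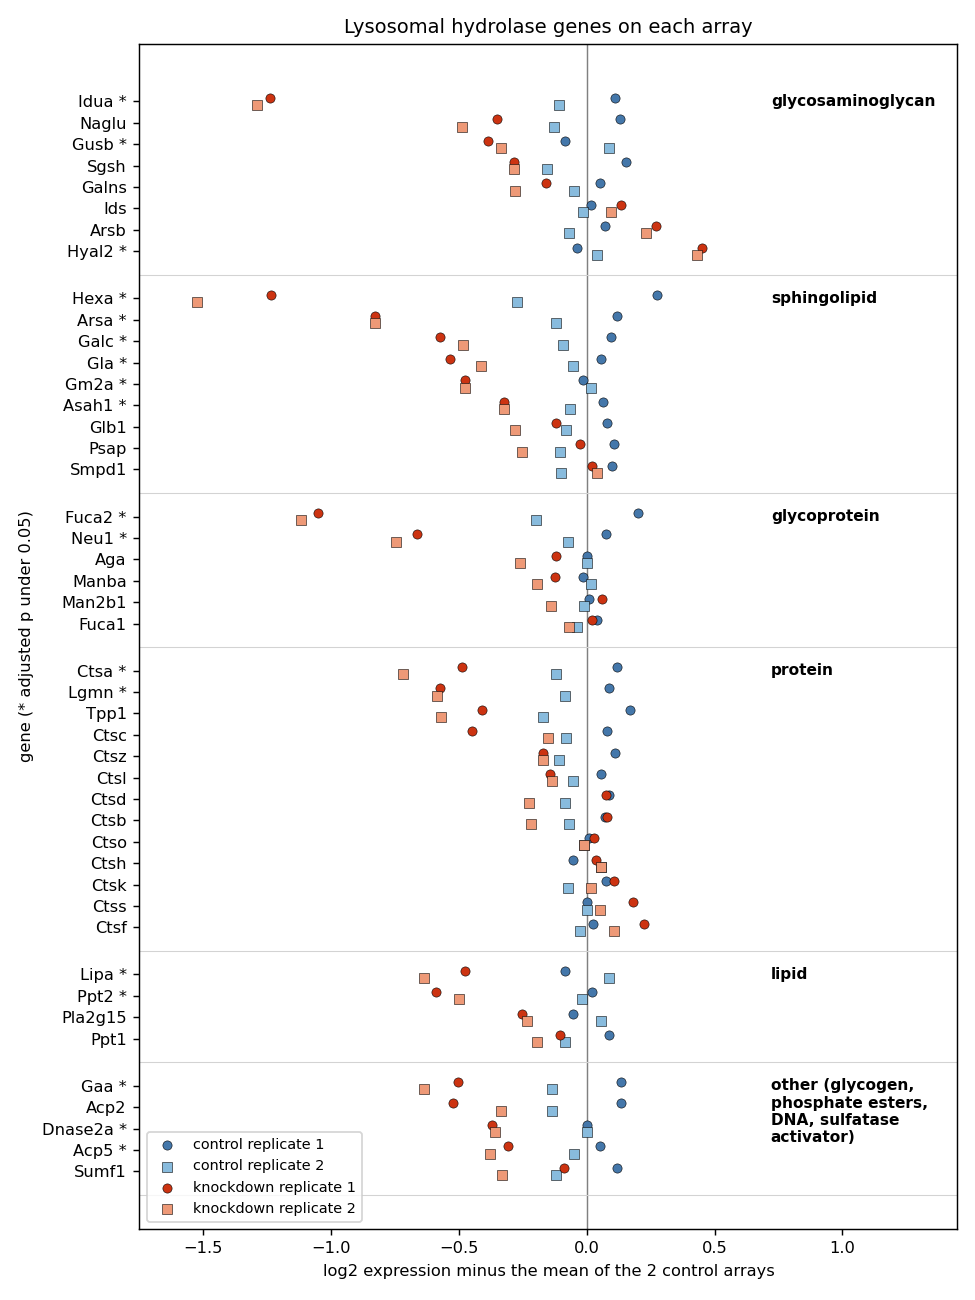
Log2 expression of the 45 measured genes on each of the 4 arrays, minus the mean of the 2 control arrays (horizontal axis), grouped by substrate and ordered by change within each group. Circles are replicate 1 and squares replicate 2, blue for control and red for knockdown, and an asterisk marks the 18 genes with an adjusted p under 0.05. The knockdown arrays of Hexa, Idua and Fuca2 lie farthest to the left, and those of Hyal2 lie to the right.

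The 9 genes of sphingolipid breakdown had the median furthest below 0, -0.475, with 6 lower (66.7%, beside 7.19% of all genes), 0 higher and 3 neither. Hexa, the alpha subunit of the hexosaminidase that trims GM2 ganglioside, stood at 12.49 and 11.94 in control and 10.98 and 10.69 in knockdown cells. On the log2 scale Hexa fell by 1.38 (SE 0.19, limma adjusted p = 0.0133), which is 2.6-fold. The groups did not overlap, but the control arrays themselves differed by 0.55, and without control replicate 1 the log2 fold change was -1.105. Gm2a, the activator protein that presents GM2 to this enzyme, read 12.04 and 12.07 in control and 11.58 on both knockdown arrays. Gm2a fell by 0.475 (SE 0.06, adjusted p = 0.0111), with the control arrays 0.03 apart.

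Arsa, the sulfatase of sulfatide, a myelin lipid, stood at 10.04 and 9.8 in control and 9.09 on both knockdown arrays, and it fell by 0.83 (SE 0.0916, adjusted p = 0.00859, limma). Galc, which removes galactose from galactosylceramide, read 9.14 and 8.95 against 8.47 and 8.56 and fell by 0.53 (SE 0.0852, adjusted p = 0.018). For both genes the knockdown arrays lay below the lower control array. Gla, the alpha-galactosidase that cleaves globotriaosylceramide, stood at 11.83 and 11.72 in control and 11.24 and 11.36 in knockdown cells and fell by 0.475 (SE 0.0759, adjusted p = 0.0178). Asah1, acid ceramidase, read 12.39 and 12.26 against 12 on both knockdown arrays and fell by 0.325 (SE 0.0704, adjusted p = 0.0385), the smallest change among the 17 lower genes. The remaining sphingolipid genes were Glb1, Psap and Smpd1. The beta-galactosidase gene Glb1 had 12.22 and 12.06 in control and 12.02 and 11.86 in knockdown cells, so the arrays were just apart (-0.20, SE 0.0886, adjusted p = 0.197). The saposin precursor gene Psap read 12.97 and 12.76 against 12.84 and 12.61, where the arrays overlapped (-0.14, SE 0.108, adjusted p = 0.434). Smpd1, acid sphingomyelinase, had a log2 fold change of 0.03, which became -0.01 when arrays were centred.

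The promoters of 3 of these genes are shown as examples of a match and of no match to the E-box core CACGTG. They hold the 250 bases before the gene start, from RefSeq on GRCm38.p6, written on the strand of the gene with the core in capitals. Arsa and Gla carry 1 and 2 copies, and Hexa, which fell most, carries 0 in this window.
Arsa (chr15:89477425-89477674, minus strand): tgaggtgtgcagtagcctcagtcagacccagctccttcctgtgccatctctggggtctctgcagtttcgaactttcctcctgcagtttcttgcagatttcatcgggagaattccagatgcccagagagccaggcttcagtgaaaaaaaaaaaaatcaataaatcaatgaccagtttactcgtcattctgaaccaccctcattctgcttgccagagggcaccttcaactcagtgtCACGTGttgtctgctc
Gla (chrX:134601006-134601255, minus strand): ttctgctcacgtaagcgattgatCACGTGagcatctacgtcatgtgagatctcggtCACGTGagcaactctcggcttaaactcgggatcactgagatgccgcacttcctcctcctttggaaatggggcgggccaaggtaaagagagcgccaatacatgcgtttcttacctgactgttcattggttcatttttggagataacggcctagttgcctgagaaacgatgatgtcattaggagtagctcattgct
Hexa (chr9:59539290-59539539, plus strand): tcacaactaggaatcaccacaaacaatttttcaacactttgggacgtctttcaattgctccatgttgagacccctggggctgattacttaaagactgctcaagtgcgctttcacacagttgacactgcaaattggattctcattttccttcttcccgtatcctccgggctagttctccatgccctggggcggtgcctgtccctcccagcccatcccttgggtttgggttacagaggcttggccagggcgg

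Of 8 genes of glycosaminoglycan breakdown 2 were lower (25.0%, beside 7.19% of all genes), 1 higher (12.5%, beside 5.0%) and 5 neither. The median of the 8 was -0.253, and -0.15 without control replicate 1. Idua, which removes iduronic acid from heparan and dermatan sulfate, stood at 10.72 and 10.5 in control and 9.37 and 9.32 in knockdown cells. The change of -1.265 (SE 0.0885, adjusted p = 0.00492, limma) is a 2.4-fold lower level and exceeded the gap of 0.22 between the control arrays several times over. Gusb, beta-glucuronidase, read 9.8 and 9.97 against 9.5 and 9.55 and fell by 0.36 (SE 0.0786, adjusted p = 0.0393). Hyal2, a membrane-anchored hyaluronidase that acts at the cell surface as well as in acid vesicles, moved the other way. It read 8.91 and 8.99 in control and 9.4 and 9.38 in knockdown cells and rose by 0.44 (SE 0.064, adjusted p = 0.0147). Among the sulfatases and other enzymes that did not pass, Naglu, which acts on heparan sulfate, had 9.18 and 8.92 against 8.7 and 8.56 (-0.42, SE 0.104, adjusted p = 0.0549). Sgsh, the heparan N-sulfatase, had 9.69 and 9.38 in control and 9.25 on both knockdown arrays (-0.285, SE 0.108, adjusted p = 0.145). The knockdown arrays of both genes lay below the control arrays, which were 0.26 apart for Naglu and 0.31 apart for Sgsh, and without control replicate 1 the value of Sgsh was -0.13. The other log2 fold changes were -0.22 for Galns, 0.115 for Ids and 0.25 for Arsb. Arsb was the only gene of the 45 with a further probe set, which gave 0.31.

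Among the 5 sulfatases of the list, all substrates of Sumf1, Arsa was lower, and Galns, Sgsh, Ids and Arsb passed in neither direction, with Ids and Arsb above both control arrays on both knockdown arrays. Of the sulfatases among the further hydrolases, Arsg (0.025) and Arsk (0.15) also passed in neither direction. Sumf1 itself read 10.42 and 10.18 in control and 10.21 and 9.97 in knockdown cells, where the arrays overlapped (-0.21, SE 0.115, adjusted p = 0.282), and its value was -0.09 without control replicate 1.

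All 6 genes of glycoprotein breakdown were below 0 (41.7% of all genes), with a median of -0.175. Of the 6, 2 were lower (33.3%, beside 7.19% of all genes), 0 higher and 4 neither. Fuca2, an alpha-L-fucosidase, stood at 10.45 and 10.05 in control and 9.2 and 9.13 in knockdown cells and fell by 1.085 (SE 0.132, adjusted p = 0.0103, limma), or 2.12-fold. Its relative Fuca1 read 10.79 and 10.71 against 10.77 and 10.68, with overlapping arrays and a log2 fold change of -0.025. The log2 difference of Fuca2 minus Fuca1 within an array was -0.34 and -0.66 in control and -1.57 and -1.55 in knockdown cells, a change of -1.06. For such a comparison of 2 arrays with 2 the exact permutation test can give no p below 0.333. Neu1, the lysosomal sialidase, read 10.45 and 10.3 against 9.71 and 9.63 and fell by 0.705 (SE 0.0773, adjusted p = 0.00843). Aga, which splits the bond between asparagine and the glycan, had 9.67 on both control arrays and 9.55 and 9.41 in knockdown cells (-0.19, SE 0.072, adjusted p = 0.145). Manba, beta-mannosidase, had 11.41 and 11.44 against 11.3 and 11.23 (-0.16, SE 0.0633, adjusted p = 0.159). The alpha-mannosidase gene Man2b1 overlapped between the groups (-0.04).

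The 13 protease genes had the median nearest to 0, -0.075. It was 0.03 without knockdown replicate 2 and -0.01 without control replicate 1. It was -0.15 without knockdown replicate 1 and -0.16 without control replicate 2. Over the protease genes whose mean was above 8.5225 it was -0.17, beside -0.175 for the glycoprotein group. Of the 13 protease genes 2 were lower (15.4%, beside 7.19% of all genes), 0 higher and 11 neither. Ctsa, the serine carboxypeptidase that also protects Neu1 and Glb1, read 13.16 and 12.92 in control and 12.55 and 12.32 in knockdown cells and fell by 0.605 (SE 0.113, adjusted p = 0.0268, limma). Of the complex it forms, Ctsa and Neu1 fell while Glb1 did not pass. The Neu1 minus Glb1 difference was -1.77 and -1.76 in control cells and -2.31 and -2.23 after knockdown. Lgmn, the asparaginyl protease that matures several cathepsins, stood at 11.61 and 11.44 against 10.95 and 10.94 and fell by 0.58 (SE 0.0773, adjusted p = 0.0123). Tpp1, a tripeptidyl peptidase, read 12.55 and 12.21 against 11.97 and 11.81 (-0.49, SE 0.124, adjusted p = 0.0581), with control arrays 0.34 apart. Ctsc, a dipeptidyl peptidase, read 10.28 and 10.12 against 9.75 and 10.05 (-0.30, SE 0.115, adjusted p = 0.15), and here the knockdown arrays lay 0.3 apart.

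None of the other 9 cathepsins, which include the main papain-like cysteine proteases and the aspartic protease Ctsd, passed the threshold in limma, and none of them had an unadjusted p under 0.05. Ctsd read 12.71 and 12.54 in control and 12.7 and 12.4 in knockdown cells, and Ctsb 11.07 and 10.93 against 11.08 and 10.78, so the arrays of both overlapped. Their log2 fold changes, -0.075 and -0.07, turned to 0.075 and 0.08 without knockdown replicate 2, and that of Ctsd was 0.01 without control replicate 1. Ctsl (-0.14) and Ctsz (-0.17) lay below control on both knockdown arrays, and Ctsf (0.165) and Ctss (0.115) above. Ctsh, Ctsk and Ctso had log2 fold changes of 0.01 to 0.06. Ctsh, Ctsk, Ctso, Ctss and Arsb were the 5 genes of the 45 whose mean log2 expression was not above 8.5225, the median of all probe sets, so little can be read from their small differences.

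The 4 genes of lipid breakdown were all below control on both knockdown arrays, with 2 lower and 2 neither and a median of -0.395. Lipa, the acid lipase of cholesteryl esters and triglycerides, read 9.53 and 9.7 in control and 9.14 and 8.98 in knockdown cells and fell by 0.555 (SE 0.0902, adjusted p = 0.0186, limma). Ppt2, a lysosomal thioesterase, read 10.27 and 10.23 against 9.66 and 9.75 and fell by 0.545 (SE 0.0659, adjusted p = 0.0102). Ppt1, which strips palmitate from proteins, had 11.5 and 11.33 against 11.31 and 11.22 (-0.15, SE 0.0816, adjusted p = 0.278). The Ppt2 minus Ppt1 difference changed by -0.395, from -1.23 and -1.1 on the control arrays to -1.65 and -1.47. The phospholipase gene Pla2g15 read 9.65 and 9.76 against 9.45 and 9.47 (-0.245, SE 0.0677, adjusted p = 0.0716).

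The other 5 genes serve glycogen, phosphate esters and DNA, with Sumf1 among them. Of these, 3 were lower (60.0%, beside 7.19% of all genes), 0 higher and 2 neither (median -0.365). Gaa, the acid alpha-glucosidase that digests glycogen, read 12.12 and 11.85 in control and 11.48 and 11.35 in knockdown cells and fell by 0.57 (SE 0.105, adjusted p = 0.0258, limma). Dnase2a, the acid endonuclease, was tight within both groups, at 10.83 on both control arrays and 10.46 and 10.47 after knockdown, and fell by 0.365 (SE 0.0594, adjusted p = 0.0186). Acp5, tartrate-resistant acid phosphatase, read 9.99 and 9.89 against 9.63 and 9.56 and fell by 0.345 (SE 0.0691, adjusted p = 0.0314). Acp2, the lysosomal acid phosphatase, had 10.33 and 10.06 against 9.67 and 9.86 (-0.43, SE 0.113, adjusted p = 0.0631).

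The same genes also differed between the control arrays. Control replicate 1 was above control replicate 2 for 35 of the 45, below it for 7 and equal for 3, with a median difference of 0.14. Over all genes control replicate 1 was the higher for 52.2%, with a median difference of 0.01. Between the knockdown arrays replicate 1 was above replicate 2 for 29 of the 45 (49.9% of all genes), with a median difference of 0.07. Hexa (0.55) and Fuca2 (0.4) had the largest gaps between control arrays and were among the 3 genes that fell most. For 10 of the 17 lower genes the change was more than 3 times the gap between the control arrays. The part of this difference in the changes was not tested. Without control replicate 1 the median of the 45 genes was -0.19. The 17 lower genes could not change sign, because both knockdown arrays lay below both control arrays for each.

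**Figure D2:**
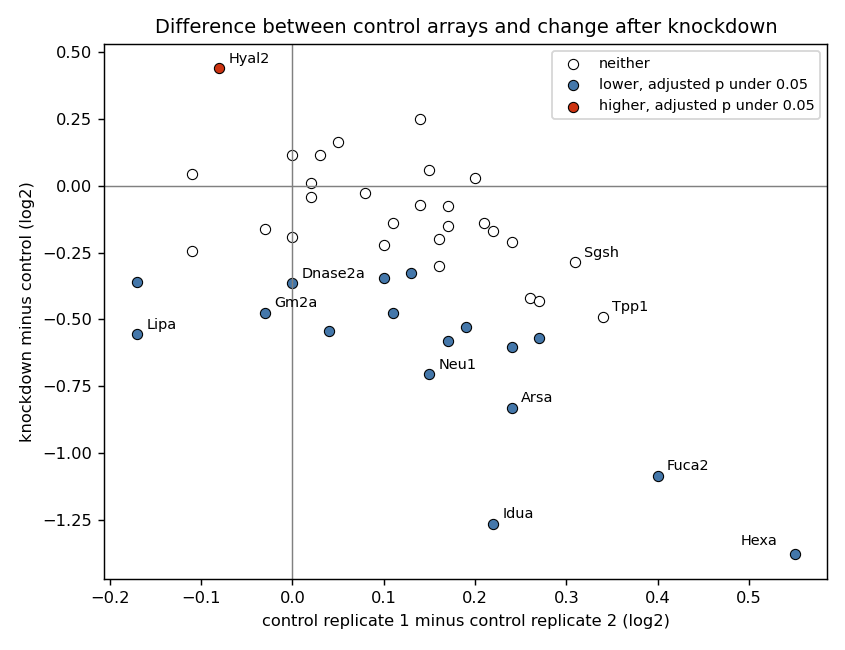
Change after knockdown (vertical axis, log2, knockdown minus control) against the difference between the control arrays (horizontal axis, log2, replicate 1 minus replicate 2) for the 45 genes. Filled points passed the threshold (blue lower, red higher). Most points lie to the right of 0, and Hexa and Fuca2 lie farthest right, while Gm2a, Dnase2a and Lipa fell with control differences at or below 0.

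The calls depend on having all 4 arrays and on the probe sets tested. With all 35557 probe sets of the table in the fit limma called 0 genes, and the lowest adjusted p among the 45 was 0.0679. Leaving out any array left 0 genes of the whole table called by limma. At an unadjusted p under 0.05, 15 to 24 of the 45 genes were then lower (8.7% to 10.9% of all genes), and 26 in the complete set (14.7% of all genes). The lowest adjusted p among the 45 genes was 0.196 to 0.258 in these fits, which leave 1 residual degree of freedom. Each of the 17 lower genes stayed below 0 and Hyal2 above 0 (0.4 to 0.48) in all 4 fits. With the replicate number as a block limma also called 0 genes of the table, with 23 of the 45 lower (13.4% of all genes) and 3 higher at an unadjusted p under 0.05.

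Other genes of the same compartment were counted from lists. Over all genes 7.19% were lower and 5.0% higher. Of 30 genes of lysosomal membrane proteins and the proton pump, 14 were lower (46.7%), 0 higher and 16 neither, with a median of -0.33. The cystine exporter gene Ctns (-1.005, SE 0.139), the sialic acid exporter gene Slc17a5 (-0.87, SE 0.0607), the chloride transporter gene Clcn7 (-0.86, SE 0.0803) and Lamp2, which encodes an abundant membrane glycoprotein (-0.84, SE 0.0831), fell most. Of 18 genes that sort the enzymes to the lysosome 6 were lower (33.3%), 0 higher and 12 neither (median -0.175). Cln6, whose product helps the enzymes leave the endoplasmic reticulum, fell by 0.95 (SE 0.0649). The sorting receptor genes Sort1 (-0.635, SE 0.0718) and Sorl1 (-0.385, SE 0.0842) fell too, as did Scarb2, which encodes a sorting receptor of the lysosomal membrane (-0.545, SE 0.0883). Of 25 further lysosomal hydrolases 6 were lower (24.0%), 0 higher and 19 neither. Their median was 0.005, but -0.052 after quantile normalization and -0.278 over those above the level of 8.5225. Dpp7, a dipeptidyl peptidase, fell by 0.98 (SE 0.0989), followed by the chitobiase gene Ctbs (-0.775, SE 0.118), the acid amidase gene Naaa (-0.515, SE 0.103) and the mannosidase gene Man2b2 (-0.375, SE 0.0844). Of 11 cathepsin inhibitors 1, Serpinb6a, was lower (-0.32, SE 0.0764, limma adjusted p = 0.0495), 0 were higher and 10 neither. The share lower, 9.09%, was near the 7.19% of all genes. Serpinb6a lay at the threshold, with an adjusted p of 0.0583 after quantile normalization. The median of the inhibitors was -0.045, which was 0.045 without knockdown replicate 2 and -0.225 over those above the level of 8.5225.

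**Figure D3:**
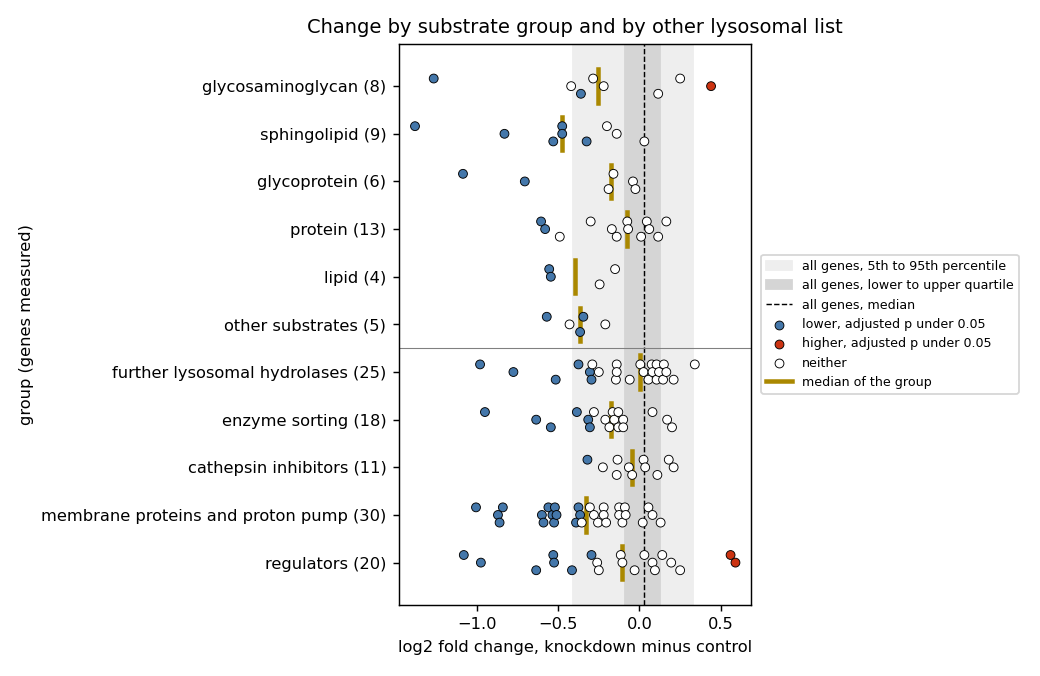
Log2 fold change of each gene (horizontal axis, knockdown minus control) in the 6 substrate groups and, below the line, in 5 other lysosomal lists, with the number of genes measured. Blue points were lower and red points higher at an adjusted p under 0.05, the thick bar is the median of a group, and the grey bands hold the central part of all 19938 genes (-0.09 to 0.125 for the inner band and -0.41 to 0.33 for the outer). All medians except those of the protein group, the further hydrolases and the cathepsin inhibitors lie left of the inner band.

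Of 20 regulators of lysosomal genes 7 were lower, 2 higher and 11 neither (median -0.11, and -0.182 over those above the level of 8.5225). Tfeb and Tfe3, transcription factors that bind the E-box of these genes, did not pass. Tfeb read 10.98 and 10.95 in control and 11.19 and 11.13 in knockdown cells (0.195, SE 0.0625, adjusted p = 0.1, limma), and Tfe3 11.89 and 11.87 against 11.81 and 11.72 (-0.115, SE 0.0651, adjusted p = 0.295). Their relative Mitf stood at 11.01 and 10.74 against 10.42 and 10.27 and fell by 0.53 (SE 0.108, adjusted p = 0.0327). Tfec, the other relative, moved the opposite way from a level below 8.5225: it read 7.6 and 7.26 against 7.99 on both knockdown arrays and rose by 0.56 (SE 0.115, adjusted p = 0.034). The genes of the folliculin complex, which acts on the Rag GTPases at the lysosome, were among the lower ones. Flcn fell by 0.415 (SE 0.0939, adjusted p = 0.0432, and 0.0509 after quantile normalization), and so did its partner genes Fnip1 (-1.08, SE 0.111) and Fnip2 (-0.635, SE 0.126). Rragd, a Rag GTPase gene, fell by 0.975 (SE 0.138), with knockdown arrays 0.42 apart. Mlx, a relative of Max, rose by 0.59 (SE 0.107).

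Promoter windows of 300 bases (250 before to 50 after the start, RefSeq, GRCm38.p6) were found by symbol for 40 of the 45 genes and for 15614 of the genes tested. CACGTG, which reads the same on both strands, occurred in 12 of the 40 genes (30.0%) and in 9.5% of all genes with a window. Counted by window, 24.5% of the 49 windows of these genes held it, against 8.24% of all 19177 windows. With a T before it on either strand (TCACGTG, a part of the CACGTG matches), it occurred in 25.0% of the 40 genes and 5.35% of all. In the other lists CACGTG occurred in 39.1% of the 23 membrane protein and proton pump genes with a window. It occurred in 42.9% of the 14 sorting genes and 15.8% of the 19 further hydrolases. Of the 40 genes CACGTG was found in 5 of the 16 that were lower (31.2%) and 7 of the 23 that passed in neither direction (30.4%). TCACGTG was found in 5 (31.2%) and 5 (21.7%) of them. Counted by window, with 24 windows in each set, CACGTG was in 20.8% for the lower genes and 29.2% for the 23. TCACGTG was in 20.8% of the windows of either set. The median number of CG dinucleotides in a window was 14 for the 40 genes and 15 over all genes. Of the 15 matches 9 began within 100 bases before the start. A match describes the letters of this window and is not a bound site.

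The matches of the remaining lower genes are shown with up to 10 bases on either side on the strand of the gene, with the core in capitals. For genes that did not pass, matches with a T before the core on either strand that began within 100 bases before the start are shown too. For Sgsh the T is on the other strand only and appears as the A after the core. Having the T was part of this choice for the genes that did not pass, and the matches of Ctsf and Ctsl, which lack it, are not shown. Further out the bases differ from gene to gene.
Ctsa (chr2:164833751-164833776, plus strand): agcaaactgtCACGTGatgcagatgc
Ctsa (chr2:164833768-164833793, plus strand): tgcagatgctCACGTGaccagagcta
Gaa (chr11:119267813-119267838, plus strand): tctgtgcgatCACGTGtttgactctg
Lgmn (chr12:102439126-102439151, minus strand): gaatgtctgtCACGTGgtccatttta
Ctsd (chr7:142387910-142387935, minus strand): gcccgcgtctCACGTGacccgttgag
Glb1 (chr9:114401020-114401045, plus strand): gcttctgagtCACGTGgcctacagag
Naglu (chr11:101070011-101070036, plus strand): accttcaggtCACGTGgcccgaggtc
Sgsh (chr11:119355524-119355549, minus strand): gcctgccgtgCACGTGaccgtgggga
Sumf1 (chr6:108185579-108185604, minus strand): caccacaggtCACGTGatctccatgg

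**Figure D4:**
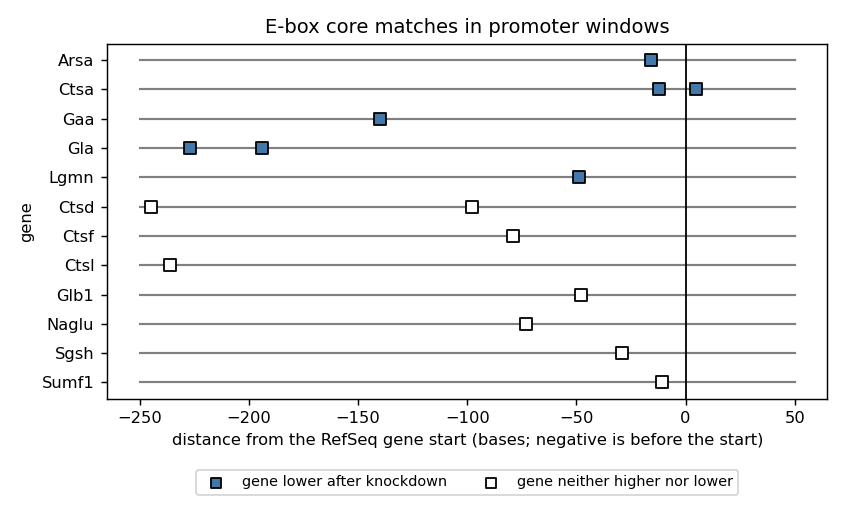
Position of each E-box core match (squares, distance of its leading base from the RefSeq gene start in bases) in the promoter windows (grey lines, 250 bases before to 50 after the start) of the 12 genes that hold 1. Filled squares belong to the 5 genes that were lower after knockdown and open squares to 7 that were neither. Both kinds lie close to the start as well as far from it.

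Some of the genes overlap another gene in the RefSeq table, and whether probe sets of such pairs share signal was not examined. Of 16 measured genes that overlap 1 of 12 lysosomal genes, 2 were lower and 0 higher, beside 7.19% and 5.0% of all genes. Pltp, a phospholipid transfer protein gene that overlaps Ctsa, read 12.48 and 12.34 in control and 11.75 and 11.63 in knockdown cells (-0.72, SE 0.08, adjusted p = 0.00859, limma). Slc26a11, which overlaps Sgsh, had a change of -0.61 (SE 0.0895, adjusted p = 0.0149). Ddb2, which overlaps Acp2, did not pass but had a change of -0.515 (SE 0.133, limma adjusted p = 0.0609). The fall of Ctsa and the values of Sgsh and Acp2 are uncertain to that extent. Neither Slc26a1 (-0.085), which overlaps Idua, nor Tmem202 (0.16), which overlaps Hexa, passed.

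Stem cell markers were bright on all arrays: Pou5f1 read 13.57 and 13.52 in control and 13.59 and 13.66 in knockdown cells. Of 14 such markers 1, Lin28a, was lower (7.14%, beside 7.19% of all genes) and 0 higher. Lysosome-rich cells of other types were examined by their markers. Of 15 macrophage markers 0 were lower, 1, Laptm5, was higher (0.5, SE 0.105) and 14 neither. Of all genes 5.0% were higher, beside 6.67% of these markers. Their mean log2 expression was 7.977 and 7.937 in control and 8.115 and 8.055 in knockdown cells. Of the 15, 13 had a mean not above 8.5225, such as Csf1r, at 7.49 to 7.61 on the 4 arrays. The other 2 were bright, Cd68 at 11.03 to 11.34 and Laptm5 at 12.65 to 13.36. Of 20 markers of primitive and visceral endoderm 6 were higher (30.0%, beside 5.0% of all genes), 0 lower and 14 neither, with a median of 0.333. Gata6 rose by 2.115 (SE 0.257), Dab2 by 1.12 (SE 0.225), Srgn by 1.025 (SE 0.244) and Col4a1 by 0.535 (SE 0.0759), and the value of Srgn was 0.62 without control replicate 2. Dab2 stood at 0.653 with its probe sets averaged, and Srgn had an adjusted p of 0.0534 when every probe set with 1 symbol was tested. The mean of these markers was 9.705 and 9.488 in control and 10.011 and 10.174 in knockdown cells. Of 13 fibroblast or feeder markers 2, Pdgfrb (-0.52) and Acta2 (-0.41), were lower, 1, Twist1 (0.425), was higher and 10 neither. The shares lower and higher were 15.4% and 7.69%, beside 7.19% and 5.0% of all genes. Fewer cells of a type and less RNA per cell cannot be told apart in such samples, and the part of these markers in the changes of the lysosomal genes was not tested.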

How the data were processed

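Total RNA of 2 control and 2 knockdown arrays (Affymetrix MoGene-1_0-st-v1) was labelled with biotin. The authors deposited log2 values with 2 decimals (35557 probe sets, values from 3.12 to 14.74, array medians 8.49, 8.51, 8.55 and 8.53). Per the submitters' processing notes they came from Affymetrix Expression Console. Its version, the background step, the summary method and the scaling were not given in the sources used here; the log2 scale was read from the values. Precision is limited by how few arrays there are.

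Probe sets with exactly 1 gene symbol in the platform annotation (21789) gave 19938 genes, the probe set with the highest mean being kept for each. All 45 genes matched the RefSeq table of GRCm38.p6 by Entrez ID. Groups and replicate numbers came from the sample titles. Knockdown was compared with control by limma 3.58.1 in R 4.3.3 (lmFit and eBayes, group as the only term, prior of 3.9 degrees of freedom, two-sided tests, adjusted by Benjamini-Hochberg across the 19938 genes). SE is limma's moderated standard error. Whether replicates are separate cultures is not stated, so each p-value measures no more than the spread between these samples. The genes, substrate groups and lists were chosen with earlier results of these data known. The text gives values per array for Kdm2b, for every one of the 45 genes past the threshold and for the 2 largest changes per substrate group among the others. It names up to 4 called genes per further list, and Tfeb, Tfe3, Mitf and Flcn. Further genes (such as Psap, Ctsd, Ctsb, Fuca1, Tfec, Arsg, Arsk and the overlapping genes) were named after their values were seen. The differences within an array of Fuca2 and Fuca1, Neu1 and Glb1, and Ppt2 and Ppt1 were not planned. Each sets a called gene against an uncalled one. Levels of different probe sets are not comparable, so only the change of such a difference can be read. The exact permutation limit of 0.333 holds for every such pair. Of 181 entries on the further lists 166 were measured, 5 of all list entries by synonym. The fit was tested on simulated data. A protein comparison of the sulfatases was not run.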

Additional observations from a re-analysis of the deposited data

How the results depend on the processing

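The alternatives were the replicate block, leaving out each array, quantile normalization, median centring of arrays, removal of dim genes, averaging a gene's probe sets, testing all 1-symbol probe sets or the full set of probe sets, and an intensity trend or a robust prior. Samples with the same replicate number deviated together with a correlation of 0.0954 over genes, and the labels give no other pairing. With the replicate block 0 of the 45 genes and 0 genes of the table were lower or higher; the unadjusted p was under 0.05 for 5411 genes. In the test of every probe set the counts were also 0 (7742 at an unadjusted p under 0.05). With each array left out in turn they were 0 throughout (3495 to 4215 at an unadjusted p under 0.05). These counts lie beside 1434 lower and 997 higher genes as reported. The block and the left-out arrays leave fewer residual degrees of freedom; why the fit of every probe set lost its calls was not tested. The other alternatives gave 17 to 21 lower genes of the 45, all 17 reported ones included, and 1 higher. Of all genes or probe sets tested, 6.93% to 9.36% were then lower, except with dim genes removed. There 13.2% of all genes were lower, beside 20 of the 40 left. Naglu was also called in 4 of these alternatives, Tpp1 in 3, Pla2g15 in 2 and Acp2 in 1. The median of the members was -0.312 over the 40 left with dim genes removed, and from -0.28 to -0.19 over all 45 with an array left out. Of the other named genes, Flcn lost its call after quantile normalization (adjusted p = 0.0509, limma), Srgn with every probe set with 1 symbol (0.0534), and Serpinb6a in both (0.0583 and 0.0519) and with the intensity trend (0.0503).

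Small changes turned sign. The ranges over left-out arrays were -0.07 to 0.02 for Fuca1, -0.225 to 0.075 for Ctsd, -0.01 to 0.1 for Ctsh, -0.07 to 0.13 for Smpd1, -0.015 to 0.135 for Ctsk, -0.01 to 0.03 for Ctso, -0.14 to 0.06 for Man2b1 and -0.22 to 0.08 for Ctsb. After quantile normalization Ctso stood at -0.022, and with centred arrays Ctso at -0.03 and Smpd1 at -0.01. With an array left out the protease median ran from -0.16 to 0.03 and that of cathepsin inhibitors from -0.14 to 0.045, and with dim genes removed they were -0.17 and -0.225. The median of the further hydrolases was -0.005 to 0.015 with an array left out, and -0.052 after quantile normalization, -0.035 with centred arrays and -0.278 with dim genes removed. The causes were not tested.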
